A study of Mus musculus with 12 samples.

Results

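Th17n cells treated with DFMO were compared with untreated iTreg cells, using 6 of the 12 ATAC-seq libraries of the series: 3 libraries of Th17n with DFMO and 3 of iTreg with vehicle, chosen by their labels alone. ATAC-seq marks accessible chromatin by inserting sequencing adapters with the Tn5 transposase. Naive CD4+CD44-CD62L+CD25- T cells from the spleens of C57BL/6 mice were sorted and activated on plates coated with 1 µg/ml each of antibodies to CD3 and CD28, then harvested at 68 hours, sorted for live cells and frozen. Th17n, the labels' name for non-pathogenic Th17 cells, received 25 ng/ml IL-6 with 2 ng/ml TGF-beta1, while iTreg (induced regulatory T) cells received 2 ng/ml TGF-beta1 without IL-6. The Th17n cells compared here were cultured with 100 µM DFMO, and the iTreg cells with vehicle. The other 6 libraries, Th17n with vehicle and iTreg with DFMO, served as reference points. Both sides thus shared the sort, the stimulation and TGF-beta1, and differed in IL-6 and in DFMO together. The parts of these 2 agents in a difference cannot be told apart within this contrast, and the value of Th17n with vehicle is given beside it. Every group held 1 library from each of 3 animals (WT1, WT2 and WT3), and the cultures were mixtures of all live cells rather than sorted for a lineage reporter.

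DFMO, difluoromethylornithine, blocks ornithine decarboxylase, the enzyme that converts ornithine into the polyamine putrescine, from which spermidine and spermine are made. Th17 cells are CD4+ T cells that secrete IL-17A and IL-17F; their programme is set by IL-6 acting through the transcription factor STAT3. Regulatory T cells restrain immune responses under the transcription factor FOXP3 and carry surface receptors such as GITR (Tnfrsf18), CTLA-4 and TIGIT. TGF-beta1 is needed for both fates in culture, and IL-6 is the signal that turns cells to the Th17 side.

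The sequences below show what the accessible promoters on either side looked like. Each is the 250 bases before an annotated RefSeq transcription start (build GRCm38.p6, the same assembly as mm10), written 5′ to 3′ on the strand of the gene. Capitals mark matches, on either strand, to the letters of 12 searched motifs. These were TGANTCA for AP-1, AGGTCA for ROR, TATAAA for TATA boxes, GGGCGGG for SP, TGTTTAC for forkhead, TGTGGTT for RUNX, CCGGAAG for ETS, TGACGTCA for CRE, TTCNNNGAA for STAT, CACGTG for the E-box, AGGTGTGA for T-box factors and CCAAT boxes by that name; the AP-1 and CRE letters, like the ROR and T-box letters, can overlap. Il17a (chr1:20730655-20730904, plus strand) and Il17f (chr1:20784271-20784520, minus strand) are the cytokine genes that define the Th17 fate. Bpifc (chr10:86011861-86012110, minus strand) and Mmp10 (chr9:7502092-7502341, plus strand) were taken after their values were seen, as promoters more accessible in Th17n with DFMO that hold the AP-1 letters. Cyba (chr8:122432941-122433190, minus strand) and Pygl (chr12:70227684-70227933, minus strand) are promoters that were less accessible there.
Il17a promoter: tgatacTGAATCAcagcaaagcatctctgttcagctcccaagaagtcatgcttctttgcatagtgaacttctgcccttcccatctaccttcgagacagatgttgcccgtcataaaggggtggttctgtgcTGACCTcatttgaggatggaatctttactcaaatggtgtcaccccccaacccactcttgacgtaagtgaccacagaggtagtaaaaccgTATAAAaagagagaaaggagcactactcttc
Il17f promoter: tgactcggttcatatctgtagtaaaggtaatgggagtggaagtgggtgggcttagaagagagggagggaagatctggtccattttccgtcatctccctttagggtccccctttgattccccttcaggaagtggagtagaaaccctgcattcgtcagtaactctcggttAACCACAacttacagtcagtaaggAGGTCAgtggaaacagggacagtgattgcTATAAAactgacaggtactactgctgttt
Bpifc promoter: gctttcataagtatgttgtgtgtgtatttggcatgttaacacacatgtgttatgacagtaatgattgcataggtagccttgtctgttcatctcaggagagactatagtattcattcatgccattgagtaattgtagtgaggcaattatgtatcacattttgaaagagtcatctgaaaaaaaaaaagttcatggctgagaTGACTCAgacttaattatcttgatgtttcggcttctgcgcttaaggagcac
Mmp10 promoter: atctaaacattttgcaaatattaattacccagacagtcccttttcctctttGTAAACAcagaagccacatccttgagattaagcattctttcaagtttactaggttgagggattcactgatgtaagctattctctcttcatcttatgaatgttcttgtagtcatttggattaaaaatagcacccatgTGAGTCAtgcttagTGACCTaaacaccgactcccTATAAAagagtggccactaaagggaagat
Cyba promoter: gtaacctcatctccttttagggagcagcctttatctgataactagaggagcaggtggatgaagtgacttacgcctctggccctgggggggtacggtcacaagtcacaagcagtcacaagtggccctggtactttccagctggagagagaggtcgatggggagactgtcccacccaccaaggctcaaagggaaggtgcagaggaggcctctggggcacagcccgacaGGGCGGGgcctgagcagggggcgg
Pygl promoter: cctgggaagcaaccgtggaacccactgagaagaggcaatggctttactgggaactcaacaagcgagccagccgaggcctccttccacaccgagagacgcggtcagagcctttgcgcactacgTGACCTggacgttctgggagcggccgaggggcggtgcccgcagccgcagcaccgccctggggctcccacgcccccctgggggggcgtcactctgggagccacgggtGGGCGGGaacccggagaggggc
The Il17a and Il17f promoters both hold a ROR and a TATA match, on the strands shown, and the Mmp10 promoter holds AP-1, ROR, forkhead and TATA matches. The Cyba and Pygl promoters each hold an SP match and no AP-1 match in this window.

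Total counts in peaks ran from 1535786 to 3077794 in Th17n with DFMO and from 1955327 to 4946527 in untreated iTreg. Levels are in CPM, each count divided by its TMM-scaled library total and multiplied by 1000000. Against the markers of the labelled cell types, the 10 CD4 T cell marker genes all had tested peaks, with summed levels of 1245 to 1323 CPM in Th17n with DFMO and 1362 to 1486 in iTreg. Of 47 such peaks, 8 were higher and 12 lower in Th17n with DFMO by the test described below (17.0% and 25.5%, against 21.8% and 13.7% of all tested peaks), and 9 and 9 with the gene-end scaling described there, where all peaks had 26.8% and 6.61%. The Th17 cytokine loci were accessible in Th17n with DFMO, whereas Foxp3, the defining gene of regulatory T cells, had 1 tested peak, low in both groups. No peak lay nearest the B cell genes Cd79a, Cd79b and Ms4a1. B cell marker peaks summed to 257 to 265 CPM in Th17n with DFMO and 144 to 209 in iTreg; of 22 peaks 10 were higher and 2 lower in both scalings (45.5% and 9.09%), and 9 of the higher ones lay nearest Ebf1. Of 10 myeloid marker peaks edgeR called 0 (2 had an unadjusted p under 0.05, DESeq2 called 0, and edgeR with the gene-end scaling called 2 higher), with sums of 156 to 183 and 144 to 158 CPM. Of 16 cytotoxic and NK cell marker peaks 1 was higher and 4 lower (6.25% and 25.0%; 1 and 3 with the gene-end scaling), with sums of 165 to 198 and 211 to 230 CPM. The part of other cell types in the results was not tested.

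Drug-treated Th17n cells remained widely different from untreated iTreg cells, with gains placed mostly away from gene ends. Of 43726 tested peaks, 15544 (35.5%) differed at an adjusted p under 0.05: 9542 (21.8%) were more accessible in Th17n with DFMO and 6002 (13.7%) less. The higher peaks were larger differences of weaker sites: 8327 differed at least 2-fold and 4113 at least 4-fold, with a median log2 difference of 1.85. Among the lower peaks, 2669 differed at least 2-fold and 642 at least 4-fold, with a median of -0.91. In median terms, the higher peaks stood at 13.1 CPM in Th17n with DFMO against 3.15 in iTreg, and the lower peaks at 16.6 against 32.5. The 2 groups' libraries did not overlap at 9000 of the higher and 5485 of the lower peaks, nor at 5896 of the 28182 peaks not called; over all tested peaks this was 20381, or 46.6%, where 35.5% were called. The balance of directions depended on the scaling. With factors taken from peaks at gene ends alone, 11710 were higher (26.8%) and 2891 lower (6.61%), so that 80.2% of calls were higher instead of 61.4%, and the median over all peaks moved up by 0.23 log2 units.

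Peaks that were higher in Th17n with DFMO lay away from gene ends. Gene-end peaks are those no more than 1 kb from the start or the end of a protein-coding gene model. Of 11728 such tested peaks, 3.50% were higher and 19.3% lower. Inside gene models 28.9% were higher and 11.6% lower, and outside them but within 100 kb 26.4% were higher and 11.99% lower. Of 1974 peaks with no gene within 100 kb, 37.7% were higher and 10.8% lower. Gene ends made up 4.30% of the higher calls, 37.7% of the lower calls and 32.1% of the peaks not called. Gene-end peaks were also the stronger ones, with a median of 38.3 CPM in iTreg against 7.37 for peaks inside genes. With factors from gene-end peaks, 6.26% of those peaks were higher and 5.64% lower, whereas 34.8% of peaks inside genes were still higher and 6.54% lower. Loess offsets on abundance gave 4.05% higher and 10.99% lower at gene ends, against 23.6% and 13.4% inside genes. The larger share of losses at gene ends thus depended on the scaling, and the small share of gains there did not.

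The share of each library's counts that fell in gene-end peaks was lower in Th17n with DFMO. It was 48.6%, 47.2% and 48.9% in Th17n with DFMO (animals 1, 2 and 3) and 56.1%, 55.1% and 53.8% in iTreg with vehicle. All 3 Th17n libraries lay below all 3 iTreg libraries, with means of 48.2% ± 0.910 (SD, n = 3) and 55.0% ± 1.19. A two-sided exact permutation test gave p = 0.10, the smallest p that 3 against 3 allows without pairing. The test ignored that both groups came from the same 3 animals. Th17n with vehicle stood at 46.0% ± 0.495 and iTreg with DFMO at 56.4% ± 0.988.

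**Figure D1:**
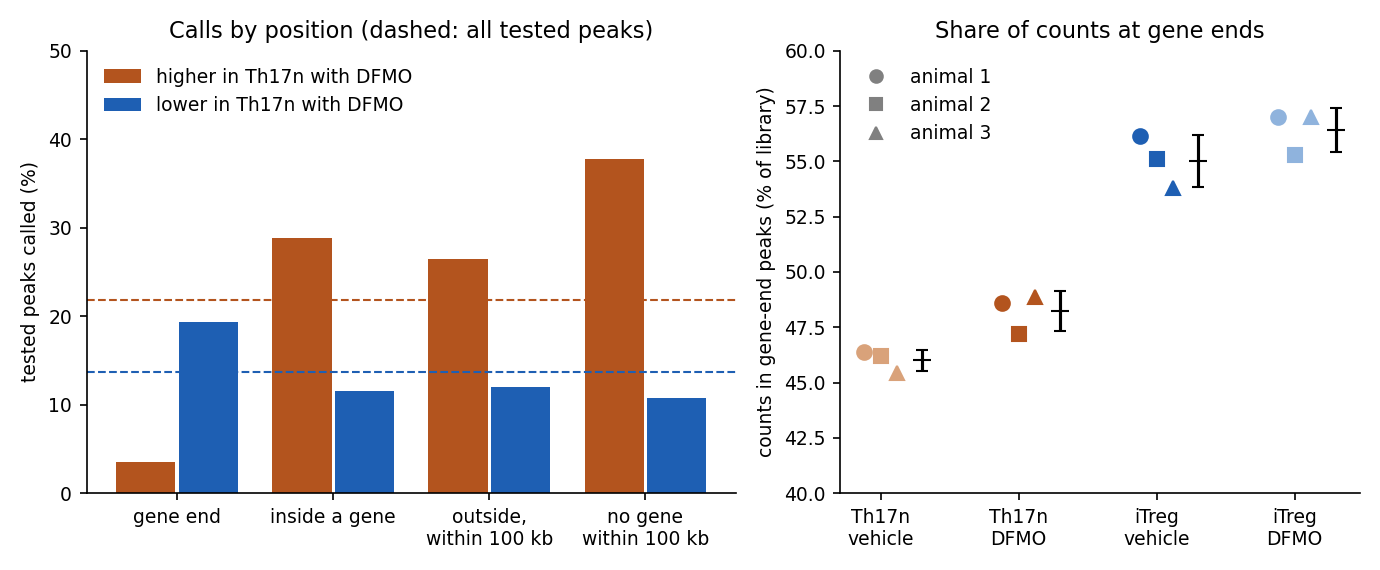
Left, the percentage of tested peaks called higher (orange) or lower (blue) in Th17n with DFMO than in iTreg with vehicle, by position, with dashed lines at 21.8% and 13.7% for all tested peaks. Right, the percentage of each library's counts in gene-end peaks, on an axis that starts at 40% (circle, square and triangle for animals 1, 2 and 3; black bar, mean ± SD of 3 libraries): Th17n with DFMO lies between 47.2% and 48.9%, below every iTreg library.

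To place the drug-treated Th17n cells between the vehicle states, an axis was drawn from the mean log2 CPM difference of Th17n vehicle and iTreg vehicle in 2 animals, and the libraries of the remaining animal were placed on it. On this scale 0 is the iTreg vehicle mean and 1 the Th17n vehicle mean of the other 2 animals. Th17n with DFMO stood at 0.750, 0.759 and 0.726 (animals 1, 2 and 3), and iTreg with vehicle at -0.073, 0.073 and 0.173. The drug-treated libraries were closely grouped and lay well above every iTreg library, with means of 0.745 ± 0.017 (SD, n = 3) and 0.058 ± 0.124. A two-sided exact permutation test of the finished positions, without pairing by animal, gave p = 0.10. That test cannot decide the difference, because iTreg vehicle libraries set the 0 of each axis. The positions are also not independent, as each vehicle library entered 2 of the 3 axes. Held-out Th17n vehicle libraries stood at 0.933 ± 0.033, with a lowest value of 0.895, above the highest drug-treated one. Held-out iTreg libraries with DFMO stood at 0.047 ± 0.025.

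**Figure D2:**
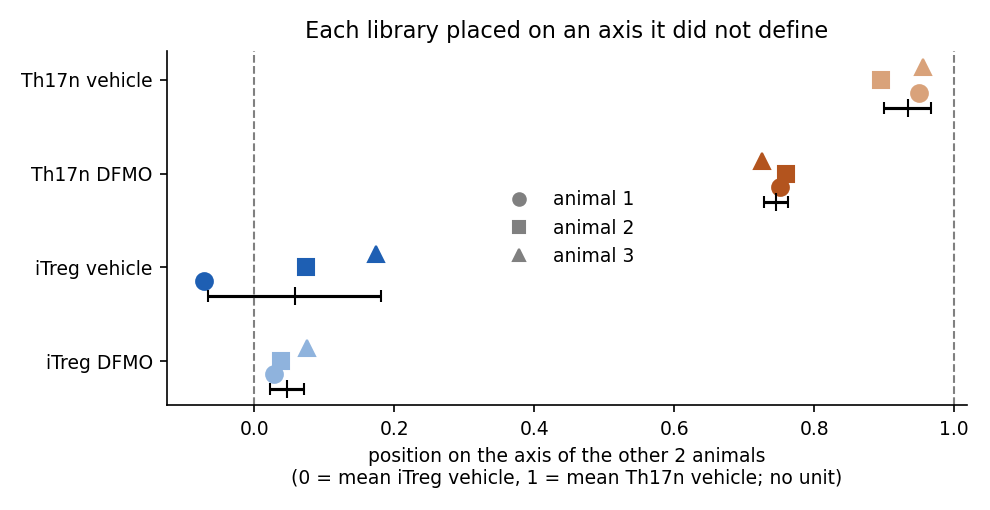
Position of each library on the axis from iTreg vehicle (0) to Th17n vehicle (1) defined by the other 2 animals, without unit; symbols are animals, and black bars are the mean ± SD of 3 libraries. The 3 Th17n libraries with DFMO lie between 0.726 and 0.759, to the left of all Th17n vehicle libraries and to the right of all iTreg libraries.

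The 10 higher peaks with the smallest adjusted p, taken at 1 per gene, were low in iTreg cells. Except at Kash5, none of them differed between DFMO and vehicle in Th17n at an adjusted p under 0.05. Their DFMO minus vehicle differences in Th17n ran from -0.41 to 0.68 log2 units. The largest was at Kash5, with a mean of 73.4 CPM with DFMO against 44.7 with vehicle (adjusted p = 0.017). A peak inside Frmd6, which encodes a FERM-domain protein of the Hippo pathway (chromosome 12, 70890603 to 70891791), stood at 70.6, 95.0 and 74.6 CPM against 2.59, 3.33 and 5.20. The groups were far apart, with a log2 difference of 4.32 ± 0.24 (SE, adjusted p = 3.7e-19). A peak outside Vstm5 had the largest log2 difference of the 10 named higher peaks, at 4.88 ± 0.30, with 56.3, 71.6 and 56.4 CPM against 2.59, 0.889 and 2.91. Others lay at Depdc5 (4.35), a component of the GATOR1 complex that restrains mTORC1, at Lyst (4.53), a regulator of lysosome traffic, at Arid1b (4.27), a subunit of the BAF chromatin remodeller, and at Kash5, Cdc73, Farp2 and Mapk8ip3 (3.45 to 4.45).

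Of the 10 lower peaks with the smallest adjusted p, 1 lay at a gene end, 4 inside genes and 5 outside them, the closest of these 1263 bp away; of the 10 higher ones, 7 lay inside genes and 3 outside, at least 8546 bp away. A peak outside Mxd1, which encodes a partner of MAX that antagonises MYC (chromosome 6, 86644769 to 86645781), stood at 9.76, 8.10 and 7.78 CPM in Th17n with DFMO and at 93.2, 69.8 and 65.3 in iTreg. All Th17n values lay below 10 CPM, and the log2 difference was -3.10 ± 0.22 (adjusted p = 2.1e-15). Inside Dnmt3a, the gene of a DNA methyltransferase that sets new methylation (chromosome 12, 3870884 to 3871773), a peak had 27.7, 22.2 and 30.5 CPM against 91.2, 106 and 101. That difference was -1.91 ± 0.16 (adjusted p = 2.6e-13), and Th17n with vehicle had 37.2 ± 5.60 CPM. Peaks at Hbs1l (-4.05), Colq (-3.59), Cyth3 (-3.37), Ccdc32 (-3.10), Papolg (-1.95) and Actb (-1.56) were lower as well. The Cyba promoter shown above, whose gene encodes a subunit of the phagocyte NADPH oxidase, lay in a gene-end peak of 48.5, 41.8 and 50.6 CPM against 149, 118 and 132 (-1.50 ± 0.14, adjusted p = 3.3e-12). Of the 10 named lower peaks, 9 had a Th17n vehicle minus iTreg vehicle difference between -3.83 and -1.21. The exception was Tnfrsf18, at -0.14.

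**Figure D3:**
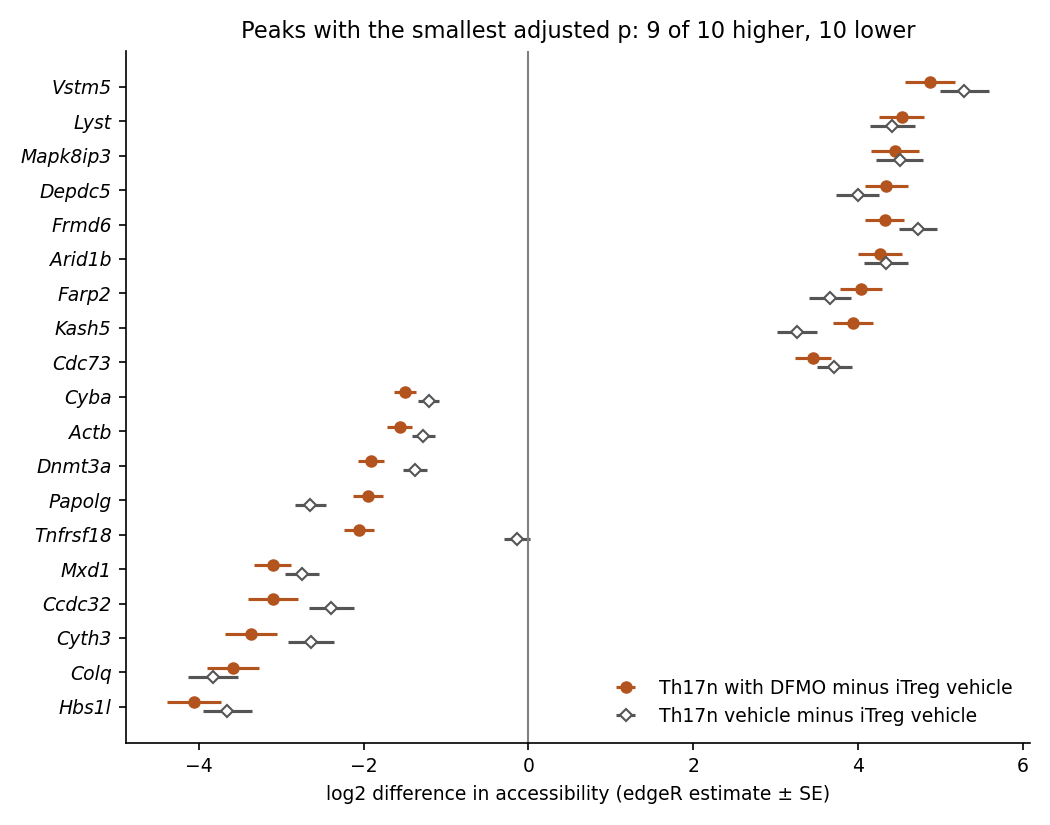
Log2 difference in accessibility (edgeR estimate, horizontal bar SE) of 9 of the 10 higher and all 10 lower peaks that ranked first by adjusted p, for Th17n with DFMO against iTreg vehicle (filled) and Th17n vehicle against iTreg vehicle (open), which share the iTreg libraries. At Tnfrsf18 the filled point lies at -2.05 and the open one at -0.14.

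Genes of the Th17 programme were more accessible in Th17n with DFMO than in iTreg at a larger share of their peaks than all peaks were. Of 194 tested peaks nearest 27 genes, 70 were higher than in iTreg and 22 lower (36.1% and 11.3%, against 21.8% and 13.7% of all tested peaks). Their median log2 difference was 0.53, against -0.03 over all peaks. With vehicle, 98 of the same peaks were higher and 26 lower in Th17n than in iTreg, where all peaks had 25.2% and 19.3%. DFMO against vehicle in Th17n gave 5 higher and 21 lower, against 4.50% and 4.28% of all peaks. Less the median of all peaks, the list's median lay between 0.49 and 0.65 over the fits run.

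The Th17 cytokine genes were accessible in drug-treated Th17n cells at regions that were near 0 in iTreg. At Il17a, whose promoter is shown above, the gene-end peak (chromosome 1, 20730661 to 20731781) stood at 11.1, 8.95 and 6.49 CPM in Th17n with DFMO, against 0, 0.889 and 1.66 in iTreg. The groups did not overlap, at a log2 difference of 3.08 ± 0.51 (adjusted p = 3.4e-06), yet vehicle-treated Th17n cells were higher, at 24.5, 24.4 and 18.0 CPM. In all, 4 of 5 tested Il17a peaks and 5 of 5 Il17f peaks were higher. The peak at an end of Il17f (chromosome 1, 20784247 to 20784613) had 12.7, 7.24 and 9.73 CPM against 1.04, 2.22 and 0 (3.17 ± 0.58, adjusted p = 2.2e-05). Without the iTreg library of animal 2 that estimate was 4.83. Il21, the gene of a cytokine that acts on B cells and on Th17 cells themselves, had 6 higher and 0 lower of 11 peaks. One of the higher peaks (chromosome 3, 37231027 to 37231695) had 58.6, 46.0 and 46.1 CPM against 1.04, 1.33 and 4.99 (4.16 ± 0.32, adjusted p = 1.6e-14), close to the 55.3 ± 1.75 of Th17n with vehicle. A peak outside Il10, the gene of an anti-inflammatory cytokine that Th17n cells can make, had 21.5, 20.9 and 16.9 CPM against 1.55, 5.11 and 5.20 (2.18 ± 0.33, adjusted p = 9.0e-07). Over 9 tested Il10 peaks 3 were higher and 1 lower, with a median of -0.08.

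Receptors and transcription factors of the Th17 programme were mostly, but not uniformly, higher. Il23r encodes the receptor for IL-23 that sustains Th17 cells, and 4 of its 5 peaks were higher; one inside the gene had 40.7, 49.0 and 29.8 CPM against 3.11, 6.00 and 9.35 (2.59 ± 0.30, adjusted p = 2.0e-09). Maf, which encodes a factor that activates Il10, had 5 of 7 peaks higher, among them a gene end at 147, 121 and 130 CPM against 82.9, 75.8 and 73.8 (0.79 ± 0.14, adjusted p = 7.4e-06). Ahr, the gene of a ligand-activated factor of Th17 cells, had 5 of 9 higher, although its gene end had 43.7 and 45.9 CPM on average and did not pass (-0.07). The gene of the nuclear receptor RORα, Rora, had 8 higher and 5 lower of 32 peaks. Its strongest gain, inside the gene, stood at 27.3, 45.2 and 29.2 CPM against 1.04, 0.667 and 2.29 (4.55 ± 0.38, adjusted p = 1.6e-13). Both tested peaks of Pdpn, the gene of the surface glycoprotein podoplanin, were higher (2.90 ± 0.21 at one and 3.50 at the other). The chemokine receptor gene Ccr6 went the other way, with 0 higher and 2 lower of 6; one of the pair stood at 1.95, 4.69 and 2.59 CPM against 17.1, 19.3 and 17.2.

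**Figure D4:**
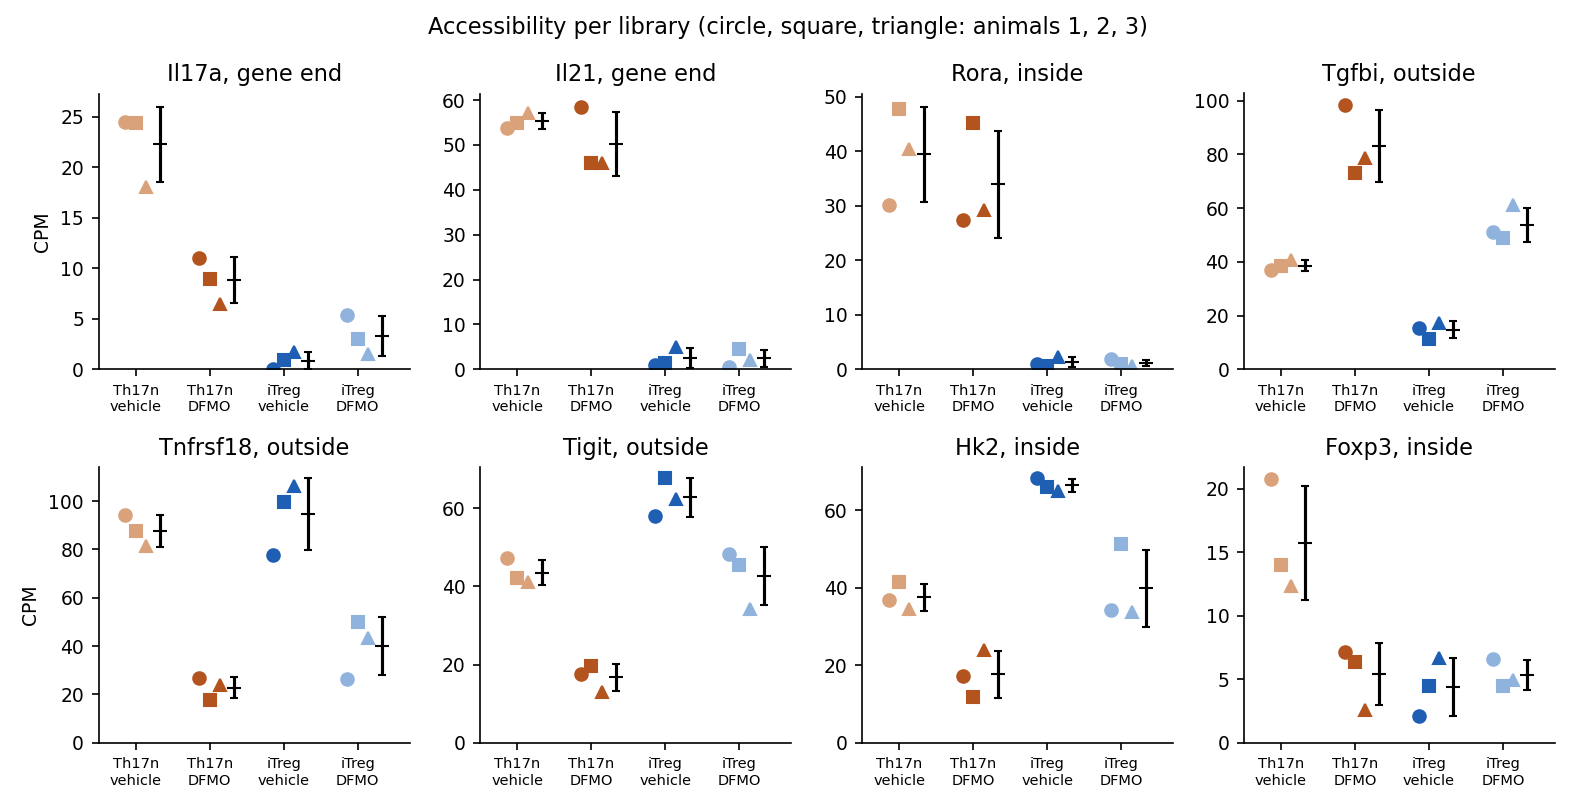
CPM of 8 named peaks in every library, from 0 (circle, square and triangle for animals 1, 2 and 3; black bar, mean ± SD of 3 libraries). Il21 and Rora stand near the Th17n vehicle level with DFMO, Il17a between the vehicle groups, Tgfbi above all other groups, Tnfrsf18, Tigit and Hk2 below both vehicle groups, and Foxp3 at the level of iTreg.

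Peaks of the Treg programme were less accessible in drug-treated Th17n cells more often than they were more accessible, in the main scaling. Of 192 tested peaks, 32 were higher and 54 lower (16.7% and 28.1%, against 21.8% and 13.7% of all), with a median of -0.14. Factors from gene-end peaks gave 40 higher and 36 lower, where all peaks had 26.8% and 6.61%, and a median of 0.09. The list's lower share was thus still above that of all peaks, and its higher share below. Relative to the median of all peaks, the list's median stayed between -0.15 and -0.04 over the fits run. In vehicle the same peaks split into 43 higher and 49 lower, where all peaks had 25.2% and 19.3%. DFMO against vehicle in Th17n gave 9 higher and 20 lower, against 4.50% and 4.28% of all peaks.

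Co-stimulatory and inhibitory receptor genes were among these losses. The peak outside Tnfrsf18 (GITR; chromosome 4, 156030655 to 156031480) stood at 26.7, 17.9 and 24.0 CPM in Th17n with DFMO, against 77.7, 99.5 and 106 in iTreg (-2.05 ± 0.18, adjusted p = 1.4e-12). In iTreg with DFMO this peak was also lower than in iTreg with vehicle, at 26.5, 49.9 and 43.4 CPM. Th17n cells with vehicle had 94.4, 87.6 and 81.3 CPM, inside the range of iTreg with vehicle. The region thus separated the groups compared here but not the vehicle states. Likewise, a peak near Tigit (chromosome 16, 43698748 to 43699624) had 17.6, 19.6 and 12.97 CPM against 58.0, 67.8 and 62.3 (-1.88 ± 0.20, adjusted p = 1.5e-10), with 43.5 ± 3.24 in Th17n with vehicle. The 4-1BB gene Tnfrsf9 had 0 higher and 4 lower of 7 peaks, the OX40 gene Tnfrsf4 0 and 1 of 1, and Lrrc32, whose product GARP presents latent TGF-beta, 0 and 3 of 7. The Helios gene Ikzf2 had 0 higher and 4 lower of 7. One of these, inside Ikzf2, stood at 0.976, 5.96 and 1.30 CPM against 15.5, 16.9 and 17.0 (-2.57 ± 0.43, and -3.89 without the drug-treated library of animal 2). The Ikzf2 gene end was lower as well (-0.71 ± 0.22, adjusted p = 0.011), a call lost with gene-end factors (adjusted p = 0.095) and without animal 2 of either group (adjusted p = 0.078 and 0.059).

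Among other Treg genes, Entpd1 and Izumo1r had higher peaks and no lower one, Ctla4, Il2ra and Nrp1 had peaks of both kinds, and the Foxp3 peak did not pass. A peak near Ctla4 (chromosome 1, 60930429 to 60930978) had 22.1, 24.3 and 22.1 CPM against 0.518, 1.78 and 0.623 (4.38 ± 0.42, adjusted p = 1.4e-11); over 16 Ctla4 peaks 3 were higher and 4 lower. Entpd1, which encodes the ectonucleotidase CD39, had 3 higher and 0 lower of 9, with 55.0, 36.6 and 46.7 CPM against 9.84, 11.3 and 15.6 at the one inside the gene with the smallest p. Izumo1r, the gene of folate receptor 4, had 4 and 0 of 9. The gene of the IL-2 receptor alpha chain, Il2ra, had 2 higher and 2 lower of 15. Nrp1, which encodes neuropilin-1, had 4 higher and 7 lower of 20, including a lower gene end (35.5, 26.8 and 24.7 CPM against 69.9, 48.0 and 50.1). Foxp3 had its one peak within the gene body (chromosome X, 7593219 to 7593658), which stood at 7.16, 6.39 and 2.59 CPM against 2.07, 4.44 and 6.65. These overlapped and did not pass (0.26 ± 0.43, adjusted p = 0.67), while Th17n with vehicle had 20.8, 14.01 and 12.3 CPM.

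Genes of the signals that set the fates moved in both directions. The IL-6 and STAT3 list had 15 higher and 30 lower of 116 peaks (12.9% and 25.9%, against 21.8% and 13.7% of all). Its median was -0.24. Factors from gene-end peaks gave 24 higher and 19 lower with a median of -0.02, where all peaks had 26.8% and 6.61%. The list's lower share was still above that of all peaks. Jak1, the gene of a kinase on the IL-6 receptor, had a distal peak of 39.0, 50.3 and 47.4 CPM against 0.518, 6.44 and 7.07 (3.05 ± 0.30). Il6st, the gene of the shared receptor chain gp130, had one of 22.1, 22.6 and 25.3 CPM against 53.4, 72.4 and 69.2 (-1.51 ± 0.19). Over all tested peaks of each gene, Jak1 had 3 higher and 2 lower of 19, and Il6st 3 and 4 of 8. The IL-6 receptor gene Il6ra had 0 higher and 4 lower of 12 and Stat3 0 and 2 of 9, while the Stat3 gene end stood at 190, 186 and 171 CPM against 157, 170 and 173 and did not pass in the main fit (adjusted p = 0.35), although it did with loess offsets or gene-end factors. The feedback inhibitor gene Socs3 was lower at a gene end (-0.86 ± 0.25, adjusted p = 0.0049), but not without the drug-treated library of animal 1 (adjusted p = 0.066). The IL-2 and STAT5 list had 10 higher and 18 lower of 88 (11.4% and 20.5%), and 21 and 10 with gene-end factors, under which its median of -0.11 became 0.12. At a gene end of Stat5a the level was 74.2, 69.4 and 75.3 CPM against 130, 134 and 152 (-0.93 ± 0.13, adjusted p = 7.9e-08).

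For TGF-beta, the cytokine that both cultures received, 31 peaks were higher and 22 lower of 151 (20.5% and 14.6%, near the 21.8% and 13.7% of all peaks). With gene-end factors 41 were higher and 12 lower, where all peaks had 26.8% and 6.61%. Tgfbi encodes an extracellular matrix protein induced by TGF-beta. A peak outside it (chromosome 13, 56601202 to 56601973) had 98.3, 72.9 and 78.5 CPM in Th17n with DFMO against 15.5, 11.1 and 17.2 in iTreg, a log2 difference of 2.52 ± 0.19 (adjusted p = 8.5e-15). The drug-treated Th17n level was also above the 36.8, 38.4 and 40.6 CPM of Th17n with vehicle. The signal transducer gene Smad3 had 7 higher and 3 lower of 17, and the receptor gene Tgfbr1 0 and 2 of 3.

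Th1 and Th2 genes were lower more often than higher in the main scaling. With gene-end factors lower calls no longer outnumbered higher ones. All peaks then had 26.8% higher and 6.61% lower, so both lists still held a larger share of lower calls than all peaks did. Less the median of all peaks, the Th1 list's median was -0.14 in the main scaling and -0.15 with gene-end factors. For the Th2 list it was -0.17 in both. The Th1 list held 75 peaks, 8 of them higher and 21 lower (10.7% and 28.0%, against 21.8% and 13.7% of all; 14 and 14 with gene-end factors). Stat4, which carries the IL-12 signal, had 0 and 3 of 11, with 0.976, 1.70 and 0 CPM against 20.2, 16.4 and 17.5 at one inside the gene. The gene end of Tbx21, encoding the Th1 factor T-bet, was at the limit (-0.71 ± 0.28, adjusted p = 0.043), and that call was lost in 12 of the other fits run, with adjusted p up to 0.25. Th2 genes had 7 and 10 of 32 (21.9% and 31.2%; 10 and 8 with gene-end factors): Gata3, the Th2 master factor gene, 0 and 4 of 8, but the IL-4 receptor gene Il4ra 6 and 0 of 11. Tfh genes had 14 and 7 of 61 (22.95% and 11.5%, near the shares of all peaks; 18 and 4 with gene-end factors). Among naive and memory genes 52 were higher and 50 lower of 265 (19.6% and 18.9%; 68 and 32 with gene-end factors); Lef1 and Tcf7, encoding TCF-family factors of naive T cells, had 0 and 6 of 24 and 1 and 5 of 13, and the repressor gene Bach2 13 and 5 of 50. The lymph node homing receptor gene Ccr7 had a distal peak of 5.53, 5.11 and 7.78 CPM against 26.4, 36.9 and 53.8 (-2.73 ± 0.30, adjusted p = 4.8e-10).

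For activation genes, of the AP-1, NFAT and NF-kB families, 34 of 207 peaks were higher and 50 lower (16.4% and 24.2%, against 21.8% and 13.7% of all). Gene-end factors gave 46 higher and 27 lower, where all peaks had 26.8% and 6.61%, so the lower share was still above that of all peaks. Egr2, a factor gene induced by T cell receptor signals, had a peak of 44.6, 58.8 and 55.1 CPM against 4.14, 7.11 and 11.2 (2.70 ± 0.27). Over its 12 tested peaks 3 were higher and 1 lower. Glycolysis and hypoxia genes had 11 and 17 of 79 (13.9% and 21.5%), and 18 and 6 with gene-end factors. A peak inside Hk2, the hexokinase gene induced in proliferating cells, stood at 17.2, 11.9 and 24.0 CPM against 68.4, 66.0 and 65.0 (-1.95 ± 0.21, adjusted p = 3.0e-10), below the 37.6 ± 3.47 of Th17n with vehicle. Over 8 tested Hk2 peaks 2 were higher and 2 lower, with a median of 0.15. Cell cycle genes had 17 higher and 18 lower of 85 (20.0% and 21.2%), and 19 and 12 with gene-end factors. Chromatin modifiers had 20 and 21 of 115 (17.4% and 18.3%; 28 and 17 with those factors), and homing genes 13 and 12 of 57 (22.8% and 21.1%; 20 and 8). The selectin ligand gene Selplg was lower at a gene end (17.9, 15.3 and 20.8 CPM against 69.4, 64.7 and 58.6).

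Polyamine genes, whose pathway DFMO blocks, had 12 higher and 4 lower of 48 peaks (25.0% and 8.33%, against 21.8% and 13.7% of all). Their median was 0.02. Gene-end factors gave 16 higher and 2 lower, where all peaks had 26.8% and 6.61%. The gene end of Odc1, which encodes the drug's target (chromosome 12, 17544271 to 17545482), stood at 88.5, 85.2 and 95.4 CPM against 112, 105 and 110. These did not overlap, but the difference did not pass in the main fit (-0.28 ± 0.13, adjusted p = 0.076; 0.042 with no filter on low counts). A distal Odc1 peak was higher, at 18.2, 17.9 and 16.9 CPM against 0, 0.889 and 2.91 (3.48 ± 0.43, adjusted p = 6.3e-09). One peak inside the spermine oxidase gene Smox was lower, at 43.9, 23.4 and 44.1 CPM against 86.5, 64.0 and 63.8 (-0.93 ± 0.19, adjusted p = 8.4e-05). Both differences have the vehicle-treated Th17n level beside them: 26.6 ± 0.964 CPM for Odc1 and 51.0, 64.6 and 60.1 for Smox.

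**Figure D5:**
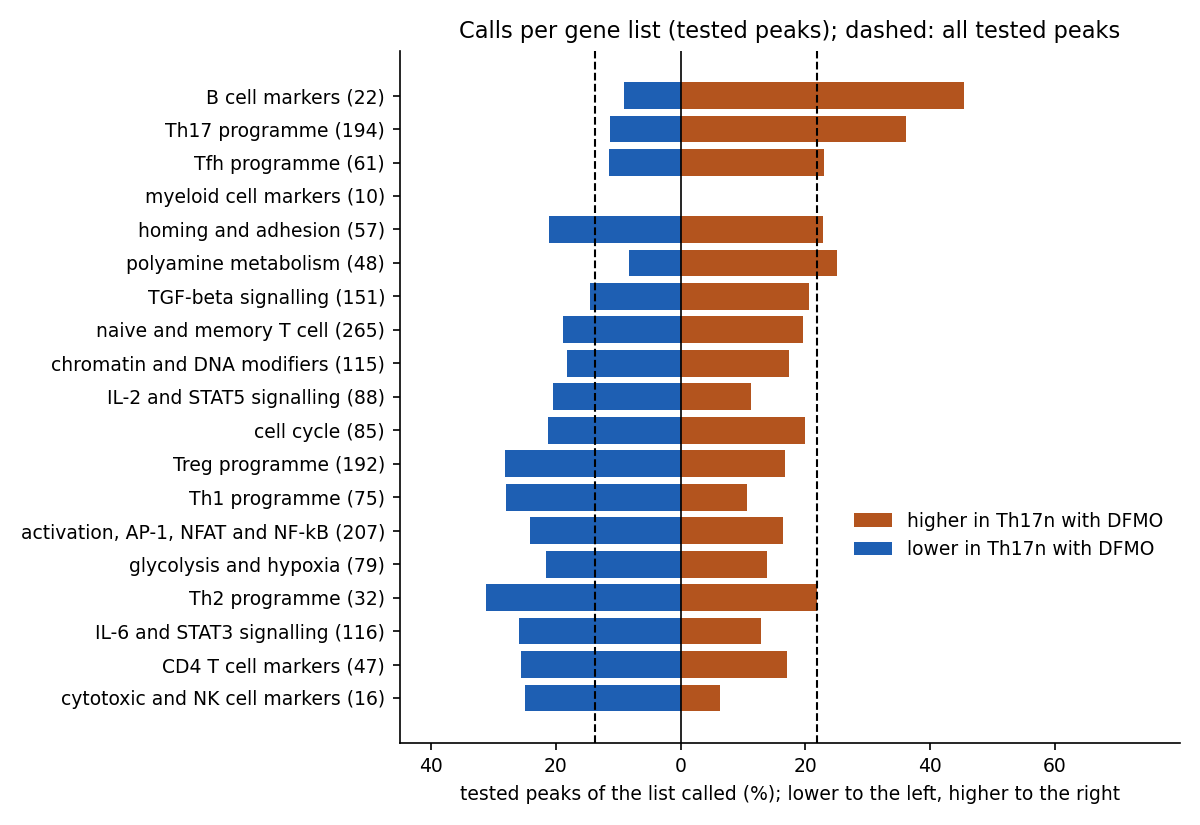
Percentage of each gene list's tested peaks called lower (left, blue) or higher (right, orange) in Th17n with DFMO than in iTreg vehicle, ordered by the list's median log2 difference, with the number of tested peaks in brackets and dashed lines at 13.7% and 21.8% for all tested peaks. The Th17 list reaches 36.1% higher, and the Treg list 28.1% lower. Many lists change balance with factors from gene-end peaks, as do all tested peaks (26.8% higher and 6.61% lower).

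Some promoters and gene ends set drug-treated Th17n cells apart from iTreg although vehicle-treated Th17n cells were at or past the iTreg level. Rpl3, a ribosomal protein gene (chromosome 15, 80075748 to 80077225), had 119, 87.8 and 86.9 CPM against 43.5, 37.3 and 36.2 (1.36 ± 0.17, adjusted p = 7.4e-09). Th17n with vehicle had 34.0, 32.7 and 28.9 CPM there, below every iTreg value. Tspoap1 (1.11) and 4921536K21Rik (2.71) were the other 2 higher ones of this kind named. In the other direction, Cth, encoding the cysteine-forming enzyme cystathionine gamma-lyase, had 13.99, 19.6 and 13.6 CPM against 36.3, 53.8 and 40.7 (-1.48 ± 0.23, adjusted p = 1.2e-06), with 53.8, 45.7 and 41.8 in Th17n with vehicle. Pygl, which encodes glycogen phosphorylase and whose promoter is shown above, had 3.90, 4.26 and 1.30 CPM against 12.95, 15.3 and 17.9 (-2.19 ± 0.39, adjusted p = 1.1e-05), with 33.03, 18.6 and 16.9 in Th17n with vehicle. A gene end of Tg was lower too (-1.56).

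The mirror comparison, vehicle-treated Th17n against drug-treated iTreg, uses none of the same libraries. It called 12196 peaks higher (27.9%) and 9850 lower (22.5%). Of the 9542 peaks higher in Th17n with DFMO than in iTreg with vehicle, 7088 were higher there as well, which is 74.3% of the first list and 58.1% of the mirror list. The lower peaks were shared less: 2760, or 46.0% of the first list and 28.0% of the mirror list. Another 271 peaks were higher here and lower in the mirror comparison, and 391 were lower here and higher there. Among these was a peak inside Stx5a, which encodes a SNARE protein of Golgi traffic (chromosome 19, 8747550 to 8748357), with 33.2, 40.0 and 27.2 CPM in Th17n with DFMO, 3.63, 2.22 and 2.08 in iTreg with vehicle, 9.44, 7.77 and 7.15 in Th17n with vehicle and 18.1, 26.7 and 15.4 in iTreg with DFMO. Both drug-treated groups lay above both vehicle groups. Another lay near Cd47, the gene of a surface protein that restrains phagocytosis (chromosome 16, 49948328 to 49948858). Its values were 4.56, 3.41 and 4.54 CPM in Th17n with DFMO, 20.2, 31.5 and 37.0 in iTreg with vehicle, 20.8, 13.3 and 9.44 in Th17n with vehicle and 7.23, 2.97 and 4.93 in iTreg with DFMO. Here both drug-treated groups lay below both vehicle groups. Stx5a and Cd47 were chosen after their values were seen.

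Promoters in higher and lower peaks differed in the letters they hold. Of RefSeq promoter windows (250 bases before to 50 after a start) lying wholly in a tested peak, 102 were in higher peaks, 2215 in lower peaks and 6852 in peaks not called. AP-1 letters (TGANTCA) were in 41.2%, 3.57% and 4.16% of these, against 7.81% of all 32817 windows. The SP letters (GGGCGGG) were in 22.5%, 62.8% and 53.4%, against 25.6% of all, and the ROR letters (AGGTCA) in 17.6%, 9.80% and 9.81%, against 16.3%. Base composition differed as well: median GC content was 52.0% in the higher, 66.0% in the lower and 63.7% in the uncalled windows, and 52.7% over all windows. Windows that share a peak or a gene are not independent, so no test is given. Bpifc, whose promoter above holds 1 AP-1 match, had 46.2, 46.0 and 57.1 CPM at its gene end against 6.22, 4.22 and 11.4 in iTreg (log2 difference 2.71 ± 0.27). Mmp10, a matrix metalloproteinase gene, had 20.5, 24.3 and 19.5 CPM against 6.73, 2.67 and 3.74 (2.41 ± 0.36), above the 10.4, 17.2 and 10.6 of Th17n with vehicle.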

How the data were processed

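The deposited table holds unscaled whole-number counts in 12 libraries at 48443 peaks (mouse build mm10); the submitters' processing notes name Trimmomatic, FastQC, Bowtie2 and MACS2 without versions or roles. Neither peak merging nor whether starts count from 0 or 1 is stated in those sources. From the counts, edgeR 4.0.16 (R 4.3.3) fitted all 12 libraries in 1 model of 4 group means: filterByExpr with a minimum count of 10 (4717 peaks not tested), TMM factors, glmQLFit and glmQLFTest. Every adjusted p is Benjamini-Hochberg over all 43726 peaks tested, at 0.05. All p-values rest on 3 animals a group. The SE of a log2 difference was derived as its absolute value divided by the square root of the test's F statistic. Alternatives were DESeq2 1.42.0, other scalings, filters and library sets.

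Each peak took the name of the closest protein-coding gene (GRCm38.p6) up to 100 kb away, which named 46089 peaks; a name does not mean that the gene is regulated from there. That annotation has no strand, so a gene end is either end. Genes with near-identical copies, such as Rpl3, are uncertain. The axis used log2 CPM with a prior count of 2.

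Genes were named by rule: the 10 non-overlapping peaks per direction with the smallest adjusted p, up to 3 genes per list, a fixed set of genes, and 3 gene-end peaks per direction whose vehicle-treated Th17n values lay within or past the iTreg range. Not every gene so named is printed; some are not reported here. The members and the 19 lists were chosen with earlier results of these data known. Libraries with the same animal number come from the same animal, per the animal identifier that the labels give each library; after group means were removed, such pairs correlated between -0.055 and 0.075.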

Additional observations from a re-analysis of the deposited data

How the results depend on the processing

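Over the 16 other fits, the higher calls numbered 6387 to 11710 and the lower calls 2891 to 7072. The lower calls fell to 2891 with TMM factors from gene-end peaks and to 3858 with a minimum count of 30, which tests fewer peaks (28237). With the replicate block, which pairs the libraries by animal, 9456 peaks were higher and 5898 lower; the block gained 1 call among the named peaks, at the Bach2 gene end (adjusted p = 0.047), and lost none. Leaving out 1 library gave 7919 to 8922 higher and 4342 to 5700 lower calls. The mirror comparison gave 21734 calls with the replicate block, 20630 with DESeq2 and 18308 to 21695 without 1 library, against 22046. The gene-end share differed by -7.41 to -6.23 percentage points without 1 library and by -6.83 with a window of 2500 bp, against -6.79; with 3 against 2 libraries the exact permutation p cannot go below 0.20. The mean axis position was 0.741 to 0.753. Of 126 named peaks 108 were called, and none of these 108 changed sign in a fit that tested it. Of the called ones 4 (Socs3, the Ikzf2 and Satb1 gene ends, Tbx21) lost the call in some fit. Another 4, not called in the main fit, gained one. Totals of 1535786 to 4946527 counts limit weak peaks: thinning to the smallest total left 7454 higher and 4331 lower calls of 37284 tested.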

Other observations

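Several long genes held many peaks that were higher in Th17n with DFMO than in untreated iTreg cells. They were picked after their values were seen, from the genes with the most calls in each direction. Over all tested peaks 21.8% were higher and 13.7% lower. Lpp, which encodes an adhesion protein of the zyxin family, had 18 higher and 1 lower of 35 tested peaks, with a median log2 difference of 0.97. Sox5, the gene of a transcription factor of the SoxD group, had 17 and 0 of 27 (median 1.54), Wwox 15 and 0 of 28, Maml2, which encodes a Notch coactivator, 14 and 1 of 32, and Snd1 11 and 0 of 19 (median 1.60). Among genes with the most lower peaks, Prkca, the gene of protein kinase C alpha, had 1 higher and 9 lower of 17 (median -0.83), and Zfp281 2 and 8 of 13 (median -0.96). Clec16a (6 and 9 of 27) and Nfkb1 (8 and 9 of 25) held calls both ways. Other genes ranked high by higher peaks were Bach2 (13 and 5 of 50), Elmo1 (12 and 1 of 26) and Hdac4 (12 and 2 of 20). By lower peaks these were Atxn7l1 (2 and 8 of 21), Prkch (8 and 8 of 28), Rad51b (4 and 8 of 22) and Akap13 (5 and 7 of 36). With factors from gene-end peaks all medians move up by about 0.23.

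Peaks at small RNA genes gave the following counts for Th17n with DFMO against iTreg with vehicle. Of 145 peaks at tRNA genes, 28 were higher and 3 lower (19.3% and 2.07%, against 21.8% and 13.7% of all tested peaks), with a median of 0.18. Of 35 at snRNA genes, 18 were higher and 0 lower (51.4% and 0%), with a median of 0.37. With factors from gene-end peaks these counts were 58 and 1 at tRNA and 27 and 0 at snRNA genes, where all peaks had 26.8% and 6.61%. Th17n with vehicle against iTreg with vehicle had medians of -0.56 at tRNA and -0.51 at snRNA genes, and DFMO against vehicle in Th17n had 0.73 and 0.87. Of 94 peaks at miRNA genes, 6 were higher and 22 lower (6.38% and 23.4%, median -0.18), but 10 and 10 with factors from gene-end peaks (median 0.04). The copies of these genes share sequence, so single loci are uncertain. On chromosome X, 16.0% of 860 tested peaks were higher and 7.91% lower, both under the shares of all peaks; with factors from gene-end peaks it was 19.4% and 2.67%.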
